A study of Mus musculus with 12 samples.

Results

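Transcript levels of 8 genes of cholesterol synthesis and its control were followed across 4 populations of sorted mouse blood cells, measured on 12 Affymetrix GeneChip arrays. The genes were taken by name: Hmgcs1, Idi1, Fdft1, Sqle, Lss and Cyp51, which encode enzymes of the pathway, and Srebf2 and Insig1, which encode its control proteins. They are 8 of 18193 genes with a probe set of a single gene symbol, and they hold 21 of the 45101 probe sets. None of the 8 encodes an uptake receptor, so uptake is described below only from other genes of the pathway. Splenic CD4+ T cells (2 arrays) had been sorted as CD4+ cells without CD8, B220 and NK1.1. Bone marrow gave PreMegE cells (4 arrays), progenitors of platelet-forming and red cells that are lineage-negative and Kit+, lack Sca1, CD105 and CD41 and carry CD150. MPP (multipotent progenitors, 3 arrays) were lineage-negative Kit+ Sca1+ cells with Flt3 and without CD150, and HSC (haematopoietic stem cells, 3 arrays) were their counterparts with CD150 and without Flt3. All samples are labelled as C57Bl/6 mice aged 10 to 12 weeks, with no genetic change or treatment named. The study isolated the HSC and MPP samples itself and took the other arrays, of PreMegE and of CD4+ T cells, from 2 pieces of its earlier work, so study and population cannot be told apart except between MPP and HSC.

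Cells build cholesterol from acetyl-CoA along the mevalonate pathway, which also supplies the isoprenoids that anchor small GTPases to membranes. The transcription factor SREBP2, encoded by Srebf2, is held in the endoplasmic reticulum by SCAP and the INSIG proteins while sterols are plentiful. When sterols fall, SREBP2 moves to the Golgi, is cleaved, and switches on the genes of the synthesis enzymes and of Insig1 itself. Sterol-response genes are known for being read together with nearby CCAAT boxes, which bind NF-Y.

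The promoters of 4 of these genes are shown because the genes are known targets of SREBP2, or its own gene, and did not follow 1 pattern across the populations. Each is the stretch of 250 bases before the gene start, 5′ to 3′ on the gene's strand, from RefSeq on GRCm38.p6. Capitals mark the sterol regulatory element forms TCACNCCAC or CACNNCAC, and CCAAT, on either strand.
Hmgcs1, chr13:119690101-119690350, plus strand: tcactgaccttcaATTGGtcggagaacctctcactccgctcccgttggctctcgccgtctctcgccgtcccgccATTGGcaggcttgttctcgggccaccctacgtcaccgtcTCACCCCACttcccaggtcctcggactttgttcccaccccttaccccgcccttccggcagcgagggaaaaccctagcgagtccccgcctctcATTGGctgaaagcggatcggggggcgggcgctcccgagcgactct
Cyp51, chr5:4104698-4104947, minus strand: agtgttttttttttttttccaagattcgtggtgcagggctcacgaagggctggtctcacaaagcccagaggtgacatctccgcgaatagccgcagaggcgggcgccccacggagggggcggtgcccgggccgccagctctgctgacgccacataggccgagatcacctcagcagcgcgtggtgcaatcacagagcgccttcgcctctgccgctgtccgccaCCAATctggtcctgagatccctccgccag
Srebf2, chr15:82147019-82147268, plus strand: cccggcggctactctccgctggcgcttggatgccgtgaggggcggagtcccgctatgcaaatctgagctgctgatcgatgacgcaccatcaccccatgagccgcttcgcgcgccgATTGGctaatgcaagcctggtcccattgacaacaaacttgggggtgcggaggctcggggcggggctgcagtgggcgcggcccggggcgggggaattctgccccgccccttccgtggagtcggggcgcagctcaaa
Insig1, chr5:28071162-28071411, plus strand: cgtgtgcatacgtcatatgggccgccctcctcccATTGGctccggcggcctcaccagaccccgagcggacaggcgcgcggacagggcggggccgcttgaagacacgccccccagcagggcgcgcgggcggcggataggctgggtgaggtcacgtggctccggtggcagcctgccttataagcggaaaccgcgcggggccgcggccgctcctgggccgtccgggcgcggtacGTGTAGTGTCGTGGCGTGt
RefSeq promoters were found for 6 of the 8 genes, these 4 with Idi1 and Lss. All 6 held CCAAT, against 33.8% of 32851 mouse promoters of this length, and all 6 held GGGCGG, the Sp1 box, against 32.7%. TCACNCCAC was present in Hmgcs1, 137 bases before the start, and in 1.05% of all promoters. CACNNCAC, which overlaps it there, was also found 3 times in Insig1, between 19 and 9 bases before the start, and in 13.5% of all promoters. These matches are of letters only and say nothing of binding. Other forms of the sterol regulatory element were not searched for, so a promoter without a match, such as that of Cyp51 or Srebf2, may still hold one.

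Levels are given as log2 intensity, differences as log2 fold changes ± SE, and a gene is called where limma's adjusted p over all 18193 genes was under 0.05. Array medians were 14.4 to 15.6 in linear intensity and lower quartiles over genes were 3.27 to 3.35 (log2) per population. All 8 genes lay above that level in every population on their brightest probe set. Summed intensities of each population's defining markers were highest in that population, at 4760 to 5610 for T cell genes in CD4+ T cells against 87.4 to 116 elsewhere, 4180 to 6430 for PreMegE genes in PreMegE against 241 to 1470, 5670 to 6220 for MPP genes in MPP against 205 to 3880, and 2990 to 3180 for HSC genes in HSC against 50.1 to 2360. Single markers went otherwise: Satb1 and Cd48 of the MPP list were higher in CD4+ T cells than in MPP, and Cd48 also averaged 8.15 in PreMegE against 7.52 in MPP. Slamf1 of the PreMegE list averaged 7.16 in CD4+ T cells, 6.83 in HSC and 6.82 in PreMegE. Eng, which encodes the CD105 that PreMegE were sorted to lack, was at 7.93 to 8.38 in PreMegE, 7.5 to 8.05 in MPP and 7.74 to 8.11 in HSC. Itga2b, which encodes the CD41 that PreMegE were also sorted to lack, was at 8.14 to 8.82 in PreMegE. It was at 7.7 to 7.89 in MPP and 10.45 to 10.63 in HSC. Some arrays stood apart. HSC replicates 2 and 3 had Xist at 2.45 and 2.59 and the Y-linked Eif2s3y at 7.46 and 8.47, whereas the other 10 arrays had Xist at 10.91 to 12.44. No sex is named in the labels. By these transcripts sex differs within HSC, and in part between HSC and each other population, MPP included. HSC replicate 1 also had the heat shock genes Hspa1a at 3.92 and Hspa1b at 5.49. Replicates 2 and 3 had Hspa1a at 9.34 and 9.2 and Hspa1b at 11.15 and 11.56. These genes thus split HSC between the same arrays as Xist. Fits with replicate 1 alone as HSC compare arrays alike in Xist, but they also change the heat shock level of HSC. The part of sex and of this heat shock split in the comparisons against HSC was not tested. The summed intensity of 7 mature neutrophil markers was 4070 on HSC replicate 2, against 432 to 513 on the other HSC arrays, and was 612 to 2390 in PreMegE. Red cell transcripts were seen on the CD4+ T cell arrays, where Alas2 was at 7.42 and 9.35. They were also higher on HSC replicate 2, with Slc4a1 at 6.94 and Alas2 at 5.53. HSC replicates 1 and 3 had Slc4a1 at 2.92 and 4.25 and Alas2 at 3.26 and 3.49. For beta-actin, the array carries control probe sets at either end of the transcript, and the 3′ over 5′ log2 ratio, a measure of RNA quality, was 0.99 to 1.13 in CD4+ T cells, 3.49 to 4.65 in PreMegE, 2.35 to 2.68 in MPP and 2.42 to 2.77 in HSC. In bulk samples, fewer cells with a transcript and less of it per cell cannot be told apart.

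In PreMegE against HSC, 5 of the 8 genes fell and 0 rose, with a median change of -0.85 against -0.01 over all genes. Over all genes 17.0% fell and 11.9% rose. The 5 were Cyp51, Insig1, Sqle, Srebf2 and Idi1, so both control genes and enzymes from early and late steps were lower in PreMegE. All 4 PreMegE arrays lay below all 3 HSC arrays for each of the 5, a separation in this direction seen for 18.4% of all genes. When replicate 1 alone stood for HSC, 4 of the 5 were still called, Srebf2 being the exception (-0.73, adjusted p = 0.0656).

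Hmgcs1 encodes HMG-CoA synthase, an early enzyme of the mevalonate pathway. It was at 9.75 and 9.78 in CD4+ T cells, 9.19, 9.29, 9.45 and 9.18 in PreMegE, 9.37, 9.04 and 9.24 in MPP, and 9.36, 9.45 and 9.76 in HSC. CD4+ T cells lay above all PreMegE and MPP arrays, and the other populations overlapped. The change in PreMegE against HSC was -0.25 (95% interval -0.56 to 0.06, adjusted p = 0.236) and did not pass.

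Idi1 encodes the isomerase that interconverts the 5-carbon building blocks. It was at 7.30 and 7.46 in CD4+ T cells, 7.02, 7.17, 6.89 and 7.03 in PreMegE, 7.48, 7.17 and 7.20 in MPP, and 7.68, 7.70 and 8.02 in HSC. HSC lay above every array of the other populations. Idi1 fell by 0.77 on the log2 scale in PreMegE (SE 0.14, adjusted p = 0.000665) against HSC.

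Fdft1 encodes squalene synthase, the enzyme that commits the pathway to sterols. It was at 7.72 and 8.02 in CD4+ T cells, 7.02, 7.16, 7.58 and 7.34 in PreMegE, 7.49, 7.55 and 7.60 in MPP, and 7.83, 7.36 and 7.87 in HSC. PreMegE overlapped with both HSC and MPP on this probe set. Its change in PreMegE against HSC was -0.41 (95% interval -0.77 to -0.05, adjusted p = 0.0846). Fdft1 passed on its next brightest probe set (-1.09, adjusted p = 0.00177), without HSC replicate 2 (adjusted p = 0.0252) and without PreMegE replicate 3 (adjusted p = 0.0297).

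Sqle encodes squalene epoxidase, a rate-limiting enzyme of the sterol branch. It was at 6.78 and 7.59 in CD4+ T cells, 6.65, 6.53, 7.06 and 6.95 in PreMegE, 7.08, 7.02 and 7.11 in MPP, and 7.83, 7.62 and 7.94 in HSC. HSC again lay above all other arrays, and the CD4+ T cell arrays differed from each other by more than the range of any other population. Sqle fell by 1.00 in PreMegE (SE 0.19, adjusted p = 0.000779) against HSC.

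Lss encodes lanosterol synthase, which closes the sterol rings. It was at 6.71 and 7.51 in CD4+ T cells, 7.35, 7.32, 7.36 and 7.28 in PreMegE, 6.43, 6.28 and 6.41 in MPP, and 6.96, 7.18 and 7.51 in HSC. MPP lay below every other array, a pattern no other of the 8 genes had. In PreMegE against HSC its change was 0.11 (95% interval -0.27 to 0.50, adjusted p = 0.719).

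Cyp51 encodes the lanosterol demethylase, a cytochrome P450. It was at 6.50 and 6.96 in CD4+ T cells, 5.18, 5.47, 5.22 and 6.08 in PreMegE, 6.78, 7.02 and 6.57 in MPP, and 7.51, 7.38 and 7.27 in HSC. PreMegE lay below and HSC above all other arrays. Its fall of 1.90 in PreMegE against HSC (SE 0.21, adjusted p = 5.07e-06), 3.74-fold, was the largest of the 8, and it was called with the same sign under all 24 alternative settings.

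Srebf2 was at 6.25 and 6.59 in CD4+ T cells, 6.18, 5.92, 6.13 and 6.53 in PreMegE, 6.68, 7.09 and 6.72 in MPP, and 6.92, 7.42 and 7.02 in HSC. PreMegE lay below MPP and HSC and overlapped with CD4+ T cells. Srebf2 fell by 0.93 in PreMegE (SE 0.18, adjusted p = 0.000968) against HSC, and its other probe set gave -1.19.

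Insig1, which encodes a protein that retains the SREBP complex in the endoplasmic reticulum, was at 6.78 and 6.30 in CD4+ T cells, 6.64, 6.59, 6.74 and 6.13 in PreMegE, 8.52, 7.79 and 8.05 in MPP, and 7.60, 7.32 and 8.01 in HSC. All arrays of CD4+ T cells and PreMegE lay below all arrays of MPP and HSC, and MPP and HSC overlapped. Insig1 fell by 1.12 in PreMegE (SE 0.22, adjusted p = 0.00096) against HSC. It was the gene whose highest mean lay in MPP.

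**Figure D1:**
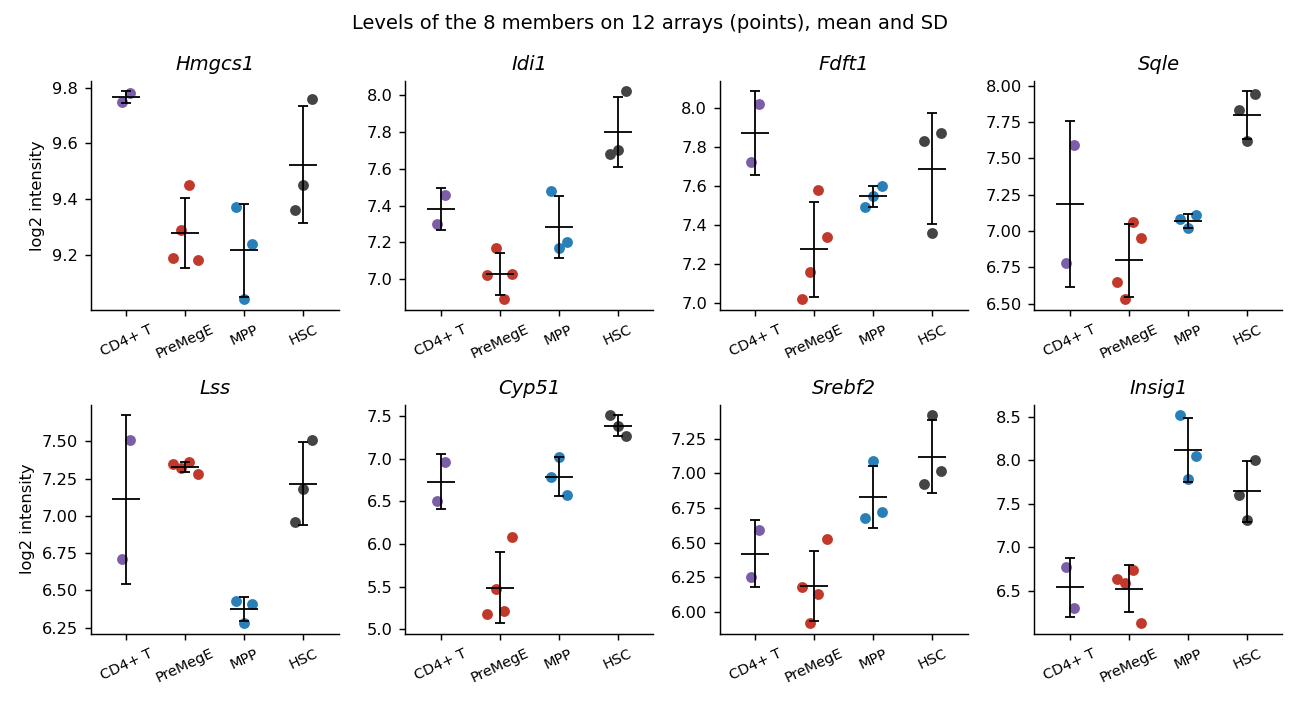
Log2 intensity (vertical axis, a separate scale in each panel) of the 8 genes on each array, as points, in CD4+ T cells, PreMegE, MPP and HSC, with the mean and SD as bars. Cyp51 is lowest on all 4 PreMegE arrays, Lss on all 3 MPP arrays, and Insig1 is low in both CD4+ T cells and PreMegE.

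Other measures moved with the same contrast, and their part in it was not tested. Of 11 mitosis genes 8 fell and 0 rose in PreMegE against HSC, with a summed intensity of 3890 to 6240 in PreMegE and 7320 to 9880 in HSC. Of 8 immediate early and heat shock genes, which respond to cell handling, 7 fell, with sums of 645 to 979 in PreMegE and 14800 to 15500 in HSC. These sums do not show the split of Hspa1a and Hspa1b within HSC given above. The beta-actin ratio given above was higher on all PreMegE arrays than on all HSC arrays, and that of Gapdh overlapped (3.12 to 4.39 in PreMegE, 3.86 to 4.14 in HSC). Of 7 mature neutrophil genes 1 rose and 0 fell, with sums of 612 to 2390 in PreMegE and 432 to 4070 in HSC. Of 5 macrophage genes 3 fell (sums of 82.0 to 110 in PreMegE, against 130 to 317 in HSC), and of 4 late erythroid genes 1 fell (1110 to 1550, against 2030 to 2450). In PreMegE, MPP and HSC the late erythroid sums rest mostly on Hemgn, which averaged 10.28, 9.3 and 11.09 there. They are therefore no measure of red cell content. No marker is at 0 on this scale.

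In MPP against HSC, 3 of the 8 genes fell and 0 rose, where 4.93% of all genes fell and 6.38% rose. Lss fell by 0.84 (SE 0.19, adjusted p = 0.00984), Sqle by 0.73 (SE 0.20, adjusted p = 0.0289) and Idi1 by 0.52 (SE 0.15, adjusted p = 0.0406). Cyp51 (-0.60, adjusted p = 0.107), Hmgcs1 (-0.31, 0.256), Srebf2 (-0.29, 0.429), Fdft1 (-0.14, 0.737) and Insig1 (0.47, 0.247) did not pass. The median was -0.41, against -0.03 over all genes. The count was 1 without HSC replicate 1, HSC replicate 3, MPP replicate 2 or MPP replicate 3, and 0 when replicate 1 alone stood for HSC, where Lss gave -0.59, Sqle -0.76 and Idi1 -0.39. The other 2 probe sets of Lss, at a mean of 3.80 and 3.69 over all arrays, gave 0.05 and 0.04. Cyp51 was called with the replicate number as a block (adjusted p = 0.026), a fit in which Idi1 was not (0.0669). Of 7 mature neutrophil genes 2 fell in MPP against HSC (sums of 127 to 283, against 432 to 4070), and 3 of the 8 genes of early and heat shock responses rose (18200 to 20800, against 14800 to 15500). Of 5 macrophage genes 2 rose (458 to 489, against 130 to 317) and of 4 late erythroid genes 1 fell (639 to 677, against 2030 to 2450). Their part in this comparison was not tested.

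In CD4+ T cells against HSC, 4 of the 8 genes fell and 0 rose, where 20.8% of all genes fell and 17.0% rose. Insig1 fell by 1.10 (SE 0.26, adjusted p = 0.00276), Srebf2 by 0.70 (SE 0.22, adjusted p = 0.0168), Cyp51 by 0.66 (SE 0.25, adjusted p = 0.0472) and Sqle by 0.61 (SE 0.23, adjusted p = 0.0435). Hmgcs1 (0.24, adjusted p = 0.33), Fdft1 (0.18, 0.539), Lss (-0.11, 0.76) and Idi1 (-0.42, 0.0677) did not pass, and the median was -0.52 against -0.06 over all genes. Between 1 and 4 genes were called when single arrays were left out, with 1 without CD4+ T cell replicate 1, where Sqle gave -0.20, Cyp51 -0.43 and Srebf2 -0.53. The count was also 2 without any of the HSC or MPP arrays in turn, and 1 when replicate 1 alone stood for HSC. All 11 mitosis genes fell in CD4+ T cells (sums of 695 to 739, against 7320 to 9880 in HSC), 3 of 4 B cell genes rose (269 to 284, against 78.6 to 93.5), 5 of 7 mature neutrophil genes fell (90.5 to 143, against 432 to 4070), 4 of 8 immediate early and heat shock genes fell (3690 to 3720, against 14800 to 15500), and the beta-actin ratios of both populations did not overlap. Of 5 macrophage genes 2 rose and 0 fell (410 to 459, against 130 to 317). Of 4 late erythroid genes 2 rose and 1 fell (285 to 1080, against 2030 to 2450). Alas2 averaged 8.39 in CD4+ T cells and 4.09 in HSC, and Slc4a1 7.34 and 4.7. Hemgn averaged 5.23 and 11.09, so the lower sums in CD4+ T cells reflect Hemgn. The part of all these markers and ratios in these differences was not tested.

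**Figure D2:**
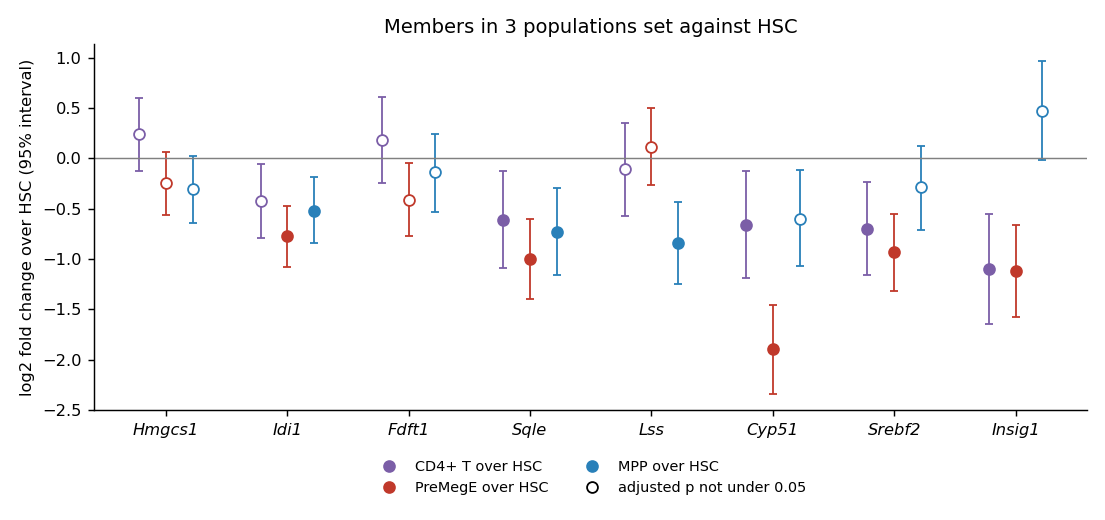
Log2 fold change over HSC (vertical axis, 95% interval) of each of the 8 genes in CD4+ T cells, PreMegE and MPP. Filled points are called and open points are not. The 3 sets share the HSC arrays. Cyp51 in PreMegE (-1.90) is the lowest point, and Insig1 is low in CD4+ T cells (-1.10) and PreMegE (-1.12) but not in MPP (0.47).

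The remaining comparisons leave HSC out and share arrays among themselves and with those above. In PreMegE against MPP, Insig1 (-1.59 ± 0.22, adjusted p = 3.03e-05), Cyp51 (-1.31 ± 0.21, 0.000133) and Srebf2 (-0.64 ± 0.18, 0.0119) fell, where 19.5% of all genes fell. Lss rose there by 0.95 ± 0.18 (adjusted p = 0.000658), where 13.5% of all genes rose. Of all genes called there 40.9% were higher, and 51.3% under quantile normalisation. Srebf2 lost its call without MPP replicate 2 (-0.51, adjusted p = 0.078) and under quantile normalisation (-0.46, 0.0944). In the same pair 9 of 11 mitosis genes fell (sums of 3890 to 6240 in PreMegE, against 6950 to 7980 in MPP), all 8 early and heat shock response genes fell (645 to 979, against 18200 to 20800), 6 of 7 mature neutrophil genes rose (612 to 2390, against 127 to 283), and the beta-actin ratios did not overlap. In CD4+ T cells against MPP, Insig1 fell by 1.58 (SE 0.26, adjusted p = 0.000142), and Lss (0.73 ± 0.22, 0.0139) and Hmgcs1 (0.55 ± 0.17, 0.0206) rose, against shares of 20.0% lower and 15.5% higher over all genes. Lss was not called there without CD4+ T cell replicate 2 (0.33, adjusted p = 0.327), nor Hmgcs1 without CD4+ T cell replicate 1 or 2 (0.0707 and 0.0955) or MPP replicate 2 (0.0837). On the next brightest probe sets 0 of the 8 genes rose and 2 fell in this pair, with 0.12 for Hmgcs1 (adjusted p = 0.823), -0.12 for Lss (0.83) and a call for Srebf2 (-1.27, 2.97e-05). In CD4+ T cells against PreMegE, Cyp51 (1.24 ± 0.24, adjusted p = 0.000542), Fdft1 (0.60 ± 0.19, 0.0241) and Hmgcs1 (0.49 ± 0.16, 0.0312) rose, where 16.3% of all genes rose and 16.8% fell. The count there was 1 without PreMegE replicate 1 or 2. Values also depended on the CD4+ T cell arrays. Without replicate 2 of these, Fdft1 gave 0.44, Hmgcs1 0.47, Lss -0.62 and Sqle -0.02. Without replicate 1, Hmgcs1 gave 0.5, Lss 0.18 and Sqle 0.79. Insig1 differed by 0.02 in this pair, with a 95% interval of -0.51 to 0.54. All 11 mitosis genes fell in CD4+ T cells against both MPP and PreMegE, 6 of 7 mature neutrophil genes fell against PreMegE (90.5 to 143, against 612 to 2390), 3 of 4 B cell genes rose against both, and the beta-actin ratio was lower on the CD4+ T cell arrays than on any other. Of the 8 early and heat shock response genes 6 fell against MPP and 6 rose against PreMegE. Of 5 macrophage genes 3 rose in CD4+ T cells against PreMegE (410 to 459, against 82.0 to 110), and 2 fell in PreMegE against MPP. Of 4 late erythroid genes 2 rose and 1 fell in CD4+ T cells against both MPP and PreMegE. The part of all these measures in the 3 comparisons was not tested.

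Ordered by mean level, HSC stood highest for Sqle, Idi1, Cyp51 and Srebf2, CD4+ T cells for Hmgcs1 and Fdft1, MPP for Insig1 and PreMegE for Lss. Few neighbours in these orders differed beyond their spread. Those that did were CD4+ T cells and HSC for Sqle (adjusted p = 0.0435) and for Insig1 (0.00276), CD4+ T cells and MPP for Lss (0.0139), and CD4+ T cells and PreMegE for Cyp51 (0.000542). For Hmgcs1, Idi1, Fdft1 and Srebf2 no neighbouring pair was called.

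The 8 genes have 21 probe sets, and those of a gene did not all move alike. Fitted over all probe sets other than controls, PreMegE against HSC gave -1.90, -0.98 and -0.20 for the 3 of Cyp51, ordered from the brightest to the dimmest. Fdft1 gave -0.41, -1.09, 0.24 and 0.69, of which the second fell and the last rose, the last having a mean level of 3.80. Hmgcs1 gave -0.25, -0.40, -0.53, -1.17 and 0.37, with only the fourth, at a mean level of 5.41, called. Idi1 (-0.77 and -1.09) and Srebf2 (-0.93 and -1.19) fell on both of theirs. The second probe set of Lss rose by 0.86, from levels at which its HSC arrays read 3.38 to 3.64. Sqle and Insig1 have 1 probe set each.

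**Figure D3:**
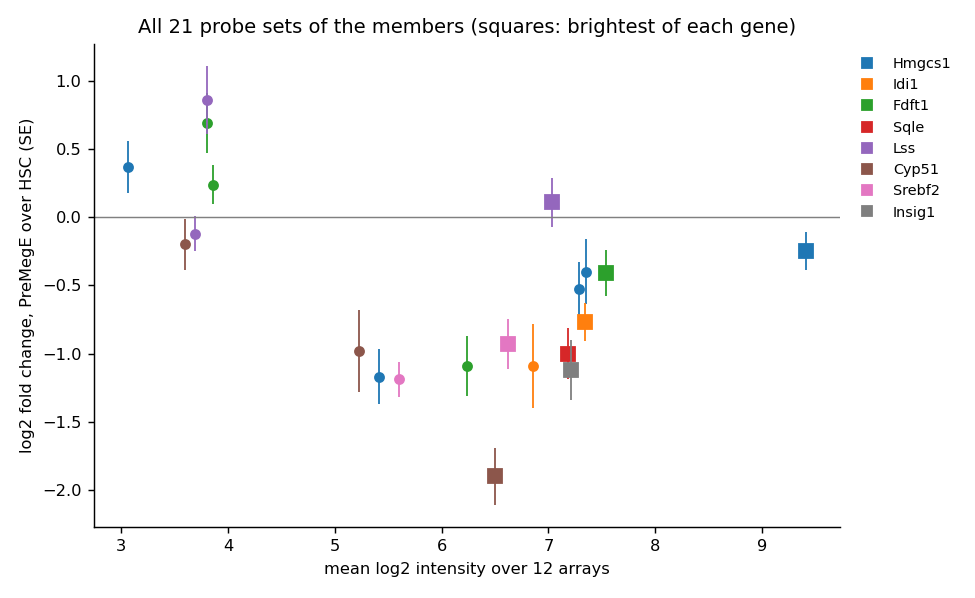
Log2 fold change of PreMegE over HSC with its SE (vertical axis) against the mean log2 intensity over 12 arrays (horizontal axis) for all 21 probe sets, with the brightest of each gene as a square. Probe sets with means between 5 and 7 lie between -1.90 and -0.93, and those under 4 lie on both sides of 0.

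Among the other measured genes of the pathway, 12 further synthesis enzymes were counted. In PreMegE against HSC 5 of them fell and 1 rose, where 17.0% of all genes fell and 11.9% rose. In MPP against HSC 1 fell and 0 rose, where 4.93% of all genes fell. In CD4+ T cells against HSC 6 rose and 0 fell, where 17.0% of all genes rose and 20.8% fell, and where 4 of the 8 genes above fell and 0 rose. The difference between these counts was not tested. Of early enzymes, the mevalonate kinase gene Mvk (0.73 ± 0.19, adjusted p = 0.00629) and the decarboxylase gene Mvd (1.50 ± 0.27, 0.000346) rose in CD4+ T cells. Pmvk, the next kinase, fell by 1.01 in PreMegE (SE 0.18, adjusted p = 0.000491) and gave -0.48 in CD4+ T cells. Fdps, which makes farnesyl diphosphate, was at 5.50 and 5.94 in CD4+ T cells, 3.55, 4.53, 4.50 and 4.25 in PreMegE, 5.69, 5.52 and 5.48 in MPP, and 5.67, 5.52 and 5.53 in HSC. It fell by 1.36 in PreMegE (SE 0.21, adjusted p = 0.000119) against HSC, whereas its next brightest probe set gave 0.04.

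Of late enzymes, Msmo1, a methyl oxidase that acts after Cyp51, was at 7.67 and 7.92 in CD4+ T cells, 4.67, 4.90, 5.92 and 5.55 in PreMegE, 5.08, 4.32 and 4.49 in MPP, and 4.90, 4.75 and 5.53 in HSC. CD4+ T cells lay above every other array. The rise in CD4+ T cells against HSC was 2.74 ± 0.34 (adjusted p = 7.25e-06), the largest among the measured synthesis enzymes on their brightest probe sets. The next brightest probe set of Msmo1 gave 0.67 (adjusted p = 0.0202). Ebp, the sterol isomerase, was at 8.85 and 9.22 in CD4+ T cells, 6.93, 7.13, 7.28 and 7.41 in PreMegE, 8.76, 8.69 and 9.05 in MPP, and 8.55, 8.49 and 8.37 in HSC. PreMegE lay below every other array, with a fall of 1.28 (SE 0.16, adjusted p = 1.58e-05) against HSC. Sc5d, a desaturase, rose by 1.42 ± 0.34 in CD4+ T cells (adjusted p = 0.00292) and fell by 0.89 in PreMegE (SE 0.28, adjusted p = 0.0261) against HSC. Lbr, a sterol reductase that is also a nuclear envelope protein, rose by 1.06 ± 0.26 in CD4+ T cells (adjusted p = 0.00337) and by 0.75 ± 0.21 in PreMegE (0.014). On the next brightest probe sets 3 of the 12 enzymes rose in CD4+ T cells, with Mvk (0.41), Mvd (0.43) and Sc5d (-0.39) not called, and 4 rose without CD4+ T cell replicate 2. Sc5d in PreMegE lost its call without HSC replicate 1 or 3 or PreMegE replicate 1 (adjusted p = 0.062, 0.141 and 0.0605), and Lbr without HSC replicate 2 (0.0905).

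**Figure D4:**
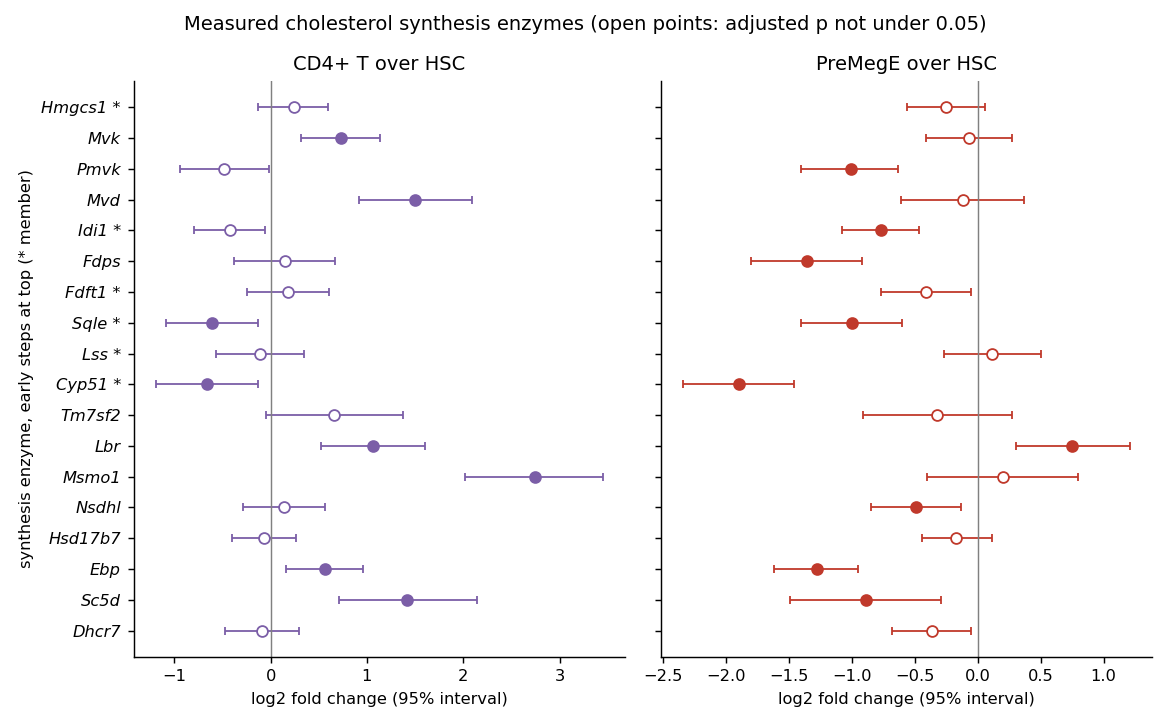
Log2 fold change (horizontal axis, 95% interval) over HSC in CD4+ T cells and in PreMegE for the 18 measured synthesis enzymes, early steps at the top, with stars on the genes followed here. Filled points are called. Msmo1 lies highest in CD4+ T cells (2.74) and Cyp51 lowest in PreMegE (-1.90).

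Among control genes, Insig2, a relative of Insig1, was at 7.98 and 6.66 in CD4+ T cells, 6.89, 6.76, 7.55 and 7.31 in PreMegE, 7.07, 6.91 and 6.92 in MPP, and 7.86, 7.85 and 8.14 in HSC. HSC lay above all PreMegE and MPP arrays. Insig2 fell by 0.98 in MPP (SE 0.27, adjusted p = 0.0297) and by 0.82 in PreMegE (SE 0.26, adjusted p = 0.0248) against HSC, and the next brightest probe set gave -1.09 and -1.16. The call in MPP ended without any 1 of the HSC or MPP arrays (-1.04 to -0.89), and that in PreMegE without replicate 1 or 3 of HSC or replicate 1 or 2 of PreMegE (-0.87 to -0.70). Srebf1, whose product mainly serves fatty acid synthesis, was at 8.54, 8.56, 8.18 and 8.26 on average in CD4+ T cells, PreMegE, MPP and HSC and was called in 0 of the 6 comparisons, the smallest adjusted p being 0.119. In PreMegE against MPP it was called under quantile (0.49, adjusted p = 0.0223) and cyclic loess normalisation (0.49, 0.0239). The protease gene Mbtps2, which makes the final SREBP cut, fell by 1.36 in CD4+ T cells (SE 0.30, adjusted p = 0.00181) against HSC, and that of the protease before it, Mbtps1, rose by 0.76 ± 0.19 (0.00392). Mbtps2 was not called without CD4+ T cell replicate 2 (-0.70, adjusted p = 0.0602), and Mbtps1 gave 0.01 on its next brightest probe set. Rnf139, which encodes a ubiquitin ligase, rose by 1.66 ± 0.23 in PreMegE (adjusted p = 4.12e-05) against HSC, and its next brightest probe set gave -0.04. Scap, the escort of SREBP, was called between PreMegE and MPP alone (-0.51, adjusted p = 0.0184), with 0.57 on its next brightest probe set.

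Of 9 uptake and transport genes, all were called in CD4+ T cells against HSC, with 5 higher and 4 lower, against 17.0% and 20.8% of all genes. In PreMegE against HSC 1 rose and 1 fell, against 11.9% and 17.0% of all genes, and in MPP against HSC 3 rose and 0 fell, against 6.38% and 4.93%. Vldlr, a lipoprotein receptor, was at 2.41 and 2.52 in CD4+ T cells, 3.22, 3.00, 2.88 and 2.77 in PreMegE, 8.59, 8.23 and 8.24 in MPP, and 6.68, 5.35 and 5.97 in HSC. Its levels in CD4+ T cells and PreMegE lay under the lower quartile over genes, so the fold against them is not exact, and it rose by 2.35 ± 0.25 in MPP (adjusted p = 1.68e-05) against HSC. Scarb1, the HDL receptor, was at 6.17 and 5.90 in CD4+ T cells and at 8.48 to 9.18 in PreMegE, 8.83 to 9.04 in MPP and 8.83 to 9.05 in HSC. Its fall in CD4+ T cells against HSC was -2.89 ± 0.19 (adjusted p = 8.24e-09). Stard4, a carrier of sterols between membranes, fell by 2.37 in CD4+ T cells (SE 0.28, adjusted p = 5.3e-06), and Lipa, the lysosomal lipase that frees cholesterol from lipoproteins, rose by 2.44 ± 0.20 (8.7e-08), with 1.28 on its next brightest probe set (adjusted p = 0.06).

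Efflux, isoprenoid and fatty acid genes gave further differences. Apoe, the apolipoprotein that carries cholesterol out of cells, was at 6.73 and 5.44 in CD4+ T cells, 10.69, 10.68, 11.53 and 11.33 in PreMegE, 7.86, 7.92 and 7.52 in MPP, and 10.52, 10.52 and 10.10 in HSC. It fell by 2.62 in MPP (SE 0.30, adjusted p = 2.68e-05) and by 4.29 in CD4+ T cells (SE 0.33, adjusted p = 4.09e-08) against HSC, and did not pass in PreMegE (0.67, adjusted p = 0.0858), although the arrays did not overlap. It passed there under quantile normalisation (adjusted p = 0.0351), on the arrays of this pair alone (0.0491) and without either CD4+ T cell array (0.0282). Abca1, a cholesterol exporter, rose by 1.18 ± 0.26 in PreMegE (adjusted p = 0.00248), with 0.29 on its next brightest probe set. Ggps1, which makes the geranylgeranyl anchor, rose by 2.39 ± 0.31 in CD4+ T cells (adjusted p = 1.23e-05) and by 2.04 ± 0.26 in PreMegE (2.17e-05) against HSC, with 0.74 in PreMegE on its next brightest probe set (adjusted p = 0.000683). Of 9 fatty acid genes 2 rose and 4 fell in CD4+ T cells against HSC, against 17.0% and 20.8% of all genes, and 1 rose and 3 fell in PreMegE, against 11.9% and 17.0%. The desaturase gene Fads2 was at 4.72 and 4.56 in CD4+ T cells, 5.25, 5.48, 5.33 and 6.04 in PreMegE, 7.44, 7.42 and 7.48 in MPP, and 8.18, 7.73 and 8.09 in HSC. These groups did not overlap, and Fads2 fell by 3.36 in CD4+ T cells (SE 0.22, adjusted p = 5.58e-09) and by 2.47 in PreMegE (SE 0.18, adjusted p = 9.23e-08), with -1.18 in PreMegE on its next brightest probe set. Scd1 and Scd2, which encode related stearoyl-CoA desaturases, went opposite ways in CD4+ T cells against HSC, at 1.92 ± 0.37 (adjusted p = 0.000629) and -1.73 ± 0.20 (3.6e-06), with 0.12 for Scd1 and -0.77 for Scd2 on the next brightest probe sets.

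The 8 genes did not share 1 profile over the 12 arrays. Each was set against the mean standardised profile of the other 7, and Pearson's r was 0.92 for Sqle, 0.89 for Idi1, 0.81 for Cyp51, 0.66 for Fdft1, 0.62 for Srebf2, 0.48 for Hmgcs1, 0.29 for Insig1 and -0.09 for Lss. The closest pair was Cyp51 and Srebf2 (0.87 over 12 arrays, 0.61 after each population's mean was removed) and the least alike was Insig1 and Lss (-0.63, and 0.03 after removal). These values describe arrays that share populations and scaling. Of 9089 other genes at or above the median level, those most like the mean profile of the 8 genes were Mllt3 (r = 0.97), Rnf103 (0.92), Cish (0.92), Cd9 (0.90), Meg3 (0.90), Prnp (0.89), Marveld2 (0.89), Mphosph8 (0.89), Lims1 (0.89) and Tceanc2 (0.88). Mllt3 averaged 7.92 in CD4+ T cells, 6.49 in PreMegE, 7.28 in MPP and 8.44 in HSC. Among the pathway's other genes the closest were Pmvk (0.82, place 57) and Fdps (0.77, place 126), and Ggps1 (-0.54) and Rnf139 (-0.54) were the farthest.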

How the data were processed

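Biotin-labelled total RNA of 12 samples was measured on Affymetrix GeneChip arrays. The deposited values are linear intensity, 1 per probe set, summarised with RMA by the authors per the submitters' processing notes. Version and joint normalisation are not given in the sources used here. Groups came from sample titles. Per the series design, HSC and MPP came from separate sorts. For the other replicates, and for separate animals, nothing is stated, so a p-value reflects only how these samples vary, which may be technical. The number of arrays limits the precision.

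Log2 was taken with no further scaling or filter, and 64 control probe sets were left out. The platform annotation named 34945 probe sets by a single symbol, 932 by several and 9160 by none. A gene took its probe set with the highest mean log2 value over 12 arrays. One limma 3.58.1 model (R 4.3.3, data.table package 1.17.8) with a mean per group gave two-sided tests, adjusted by Benjamini-Hochberg over all genes. It was tested on simulated data.

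The members, lists and rules were chosen with earlier results of these data known. Named were all members, Srebf1, Insig2, up to 4 further called genes per pathway list by range of group means, and the 10 genes most alike. Of 67 pathway genes listed, 57 were measured. Alternatives changed scaling, offset, filter, probe set, variance model and arrays. Fitting every probe set separately was added after seeing the data.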

Additional observations from a re-analysis of the deposited data

How the results depend on the processing

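Across 24 alternative settings the fold changes of the 8 genes kept their direction and call in 1024 of 1140 cases. These cases include differences that were not called to begin with and stayed so. Among called ones, Cyp51 in CD4+ T cells against HSC was called with the same sign in 9 of 24 settings and Sqle there in 10 of 23. Idi1 was so in 11 of 24 in MPP against HSC, and in all 24 in PreMegE against HSC. The replicate numbers were taken not to pair the samples, as no source states a pairing. Of 15 same-numbered pairs of arrays 3 deviated together at r over 0.1 (range -0.06 to 0.35). Differently numbered pairs ranged from -0.39 to 0.44, so these values do not decide whether the numbers pair samples. With the replicate block 5, 3, 3, 4, 3 and 3 of the 8 genes were called in PreMegE against HSC, MPP against HSC, CD4+ T cells against HSC, PreMegE against MPP, CD4+ T cells against MPP and CD4+ T cells against PreMegE, and 5034, 2153, 7113, 5800, 6519 and 5929 of all genes, against 5, 3, 4, 4, 3 and 3 and 5255, 2058, 6879, 6004, 6465 and 6028 without it. Leaving out 1 array gave, in the same order, 5 to 6, 1 to 3, 1 to 4, 3 to 4, 1 to 3 and 1 to 3 of the 8 genes, and 4264 to 5436, 1280 to 2341, 5797 to 7149, 4861 to 6412, 5412 to 6795 and 4971 to 6303 of all genes. A group left with 1 array was assumed to vary like the others.

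When replicate 1 alone stood for HSC, calls came to 3395 genes in PreMegE against HSC and 779 in MPP against HSC, with 0 of the 8 genes in MPP and 1 in CD4+ T cells, where fewer arrays enter. In MPP against HSC 1 of the 8 was called on the next brightest probe sets and 1 on the mean of all probe sets. In CD4+ T cells against HSC 2 were called under quantile normalisation, with an intensity trend, on the next brightest probe sets and with every probe set fitted separately. On the next brightest probe set the direction turned for Fdps (0.04 in PreMegE against HSC, 0.18 in PreMegE against MPP, -0.29 in CD4+ T cells against PreMegE) and Rnf139 (-0.04 and -0.59 in PreMegE against HSC and MPP). It also turned for Lss (0.05 in MPP against HSC, -0.12 in CD4+ T cells against MPP), Fads1 (0.44 in MPP against HSC), Cyp51 (0.15) and Sc5d (-0.39) in CD4+ T cells against HSC, Mbtps1 (-1.47 in PreMegE and -0.70 in CD4+ T cells against MPP) and Scap (0.57 in PreMegE against MPP). The mean of all probe sets turned Mbtps1 (-0.69) and Scap (0.03) in PreMegE against MPP. The cause was not tested. Under quantile normalisation the share of called genes that were higher was 51.3% in PreMegE against MPP (40.9% without it) and 50.8% in PreMegE against HSC (41.2%).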
